A study of Mus musculus with 12 samples.

Results

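A set of 9 transcription factors of the microglial lineage were examined in the hippocampal transcriptome of APPSwe/Ps1dE9 (APP/PS1) mice: Spi1, Irf8, Runx1, Maf, Bhlhe40, Bhlhe41, Mitf, Hif1a and Cebpa. They were listed by name as myeloid regulators and matched to the count table through their Ensembl identifiers, which gave 9 genes of the 55573 in the table. All 9 reached the expression minimum, CPM (the count scaled to the depth of the library) of at least 1 in at least 3 libraries, and were therefore among the 15521 genes tested. The study asked whether the hippocampus of the 2 sexes responds differently to early amyloid pathology, and the same question is asked here of these regulators.

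Each library was made from the whole right hippocampus of 1 mouse of the C57BL/6J strain, aged 4.5 months, as a directional poly-A library. There were 4 APP/PS1 females, 4 APP/PS1 males, 2 WT females and 2 WT males. The APP/PS1 mice carried both transgenes of the APPSwe/Ps1dE9 line, one of them a mutated chimeric mouse/human amyloid precursor protein, each driven by an element of the prion promoter, and the comparison animals were WT. Replicates were separate animals.

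Microglia are the resident macrophages of the brain. Spi1 (which encodes PU.1), Irf8 and Runx1 are needed for the formation or identity of the lineage, and PU.1 and Irf8 bind together at many microglial enhancers. Cebpa acts in myeloid progenitors and in mature cells. Maf, Bhlhe40, Bhlhe41, Mitf and Hif1a act on the state of the mature cell, on lipid and lysosomal genes or on the answer to low oxygen, and several of these factors are also made by neurons, astrocytes or other brain cells.

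Spi1, Irf8 and Runx1, 3 of the 9 factors, were more abundant in APP/PS1 than in WT hippocampus. With the 2 sexes averaged, Irf8 was 2.30-fold, Runx1 1.75-fold and Spi1 1.72-fold as abundant as in WT, and every one of the 8 APP/PS1 libraries lay above every one of the 4 WT libraries for each of them. The log2 fold changes of the other 6 factors lay between -0.07 and 0.27, and none of the 6 passed the test. Genes were called at a false discovery rate (FDR) under 0.1 in edgeR's quasi-likelihood test, adjusted by Benjamini-Hochberg over all genes tested. By that rule 297 of 15521 genes (1.91%) were called, 272 of them (1.75%) higher in APP/PS1, against 3 of the 9 factors, all higher. Libraries of the 2 genotypes did not overlap, APP/PS1 being higher, for 213 of 15521 genes (1.37%) and for the same 3 of the 9 factors. At an unadjusted p under 0.05 stood 7 of the 9 factors and 1502 of all genes. The median log2 fold change of the 9 factors was 0.18, beside 0.01 for all genes tested.

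**Figure D1:**
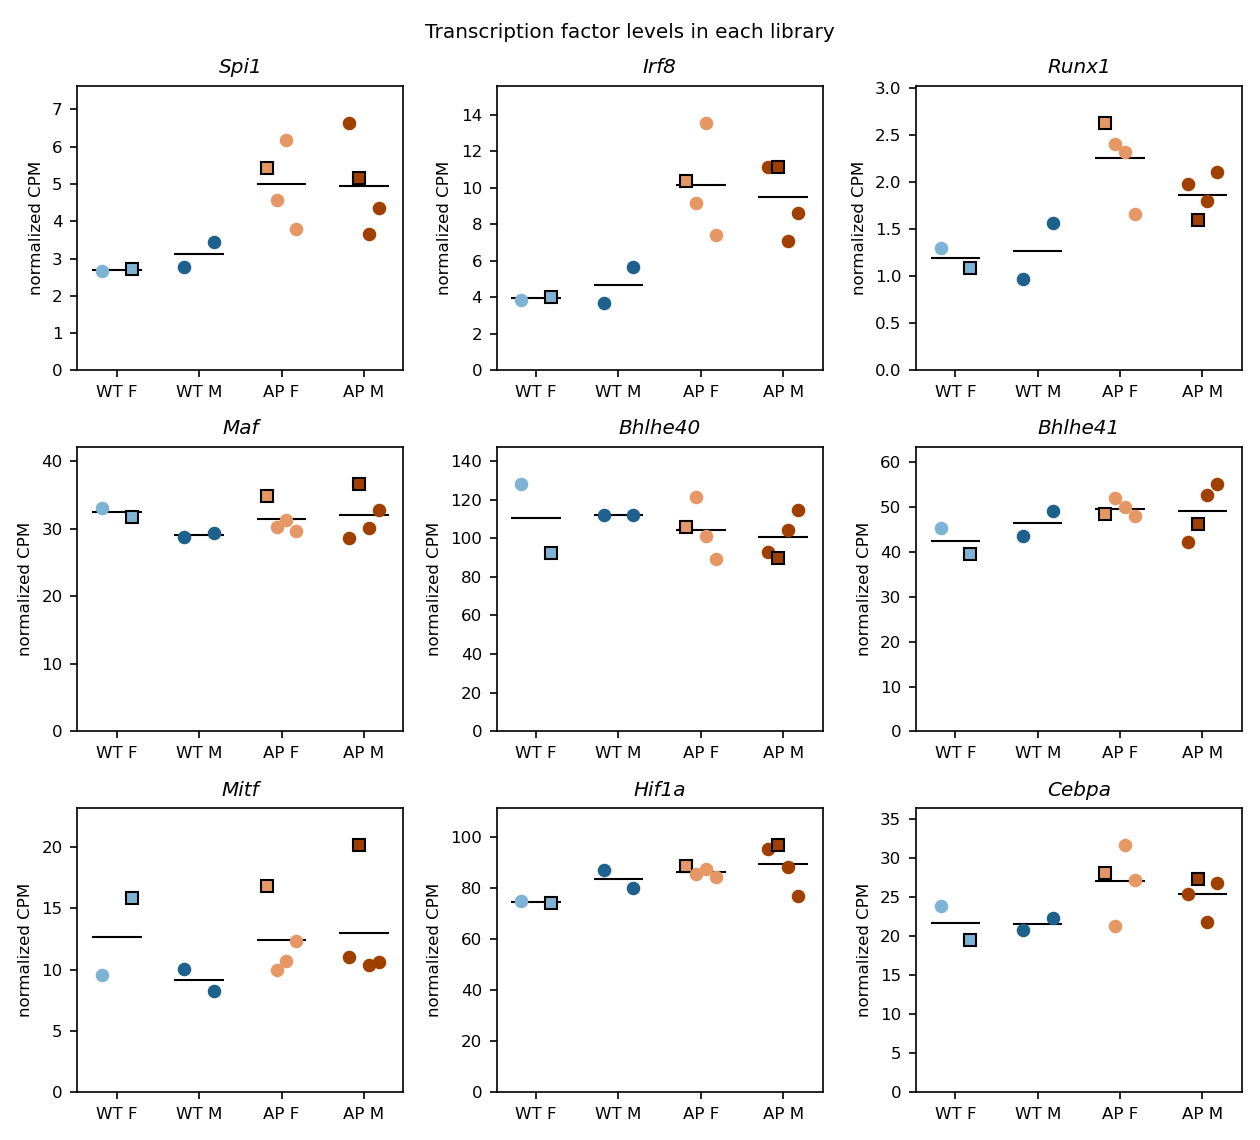
Normalized CPM of the 9 transcription factors in each of the 12 libraries, by group (WT, wild type; AP, APP/PS1; F, female; M, male). Points are animals, bars are group means, and squares with a black edge are the 3 libraries rich in choroid plexus transcripts; the 8 APP/PS1 libraries lie above the 4 WT libraries for Spi1, Irf8 and Runx1, whereas Mitf is highest in the 3 square libraries.

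The libraries held 36714316 to 50643565 counts. Choroid plexus transcripts were abundant in 3 libraries, those of WT female 2 and of the transgenic female 1 and male 2: Ttr, the transthyretin gene of that epithelium, stood at 3526 to 6318 CPM there and at 2.68 to 18.2 CPM in the other 9. In the check of the genotype labels, App, the mouse counterpart of one of the transgenes, had a log2 fold change near 0 (adjusted p = 0.989), whereas Thy1, a neuronal surface glycoprotein gene that separated the genotypes, was at 2187 to 3305 CPM in APP/PS1 and 724 to 749.8 CPM in WT (adjusted p = 3.85e-06). No library went against its label by Thy1.

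Spi1 (ENSMUSG00000002111, chromosome 2, 91082390 to 91115756, plus strand, GRCm38) encodes PU.1, the ETS-domain factor on which macrophages and microglia depend. In normalized CPM, which is CPM after upper-quartile scaling, the APP/PS1 females 1 to 4 had 5.44, 4.58, 6.18 and 3.78 and the APP/PS1 males 1 to 4 had 6.63, 5.15, 3.67 and 4.36. The WT females had 2.68 and 2.72 and the WT males 2.79 and 3.44. The lowest APP/PS1 animal, male 3, was close to the highest WT animal, male 2, and the APP/PS1 animals themselves were spread more widely than the WT animals. The means were 4.97 ± 1.08 (SD, n = 8) and 2.91 ± 0.362 (SD, n = 4). The log2 fold change was 0.78 ± 0.182 (SE), with an adjusted p of 0.059. Spi1 was the least secure of the 3 calls: without 1 animal the adjusted p ran from 0.038 to 0.203, and the call was lost without any 1 of the transgenic female 1 (0.116), transgenic female 2 (0.101), transgenic male 2 (0.15), WT female 1 (0.189), WT female 2 (0.203), WT male 1 (0.145) or WT male 2 (0.116). The log2 fold change stayed between 0.69 and 0.87 in the fits without 1 animal. The ranking of Spi1 holds for leaving out animals only. With 0 or 1 factors of unwanted variation in the fit Spi1 kept its call (adjusted p = 0.0635 and 0.0516), and Runx1 did not. Spi1 had no entry in the promoter table.

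Irf8 (ENSMUSG00000041515, chromosome 8, 120736358 to 120756694, plus strand) encodes an interferon regulatory factor that is the partner of PU.1 in macrophages. The APP/PS1 females had 10.4, 9.18, 13.5 and 7.43 CPM and the APP/PS1 males 11.1, 11.1, 7.08 and 8.60 CPM. The WT females had 3.87 and 4.02 CPM and the WT males 3.68 and 5.66 CPM. APP/PS1 female 3 was the highest library and APP/PS1 male 3 the lowest of the transgenic animals, which also had the lowest Spi1. The means were 9.81 ± 2.16 (SD, n = 8) and 4.31 ± 0.913 (SD, n = 4), for a log2 fold change of 1.20 ± 0.195 (SE, adjusted p = 0.0148), the largest of the 9. Irf8 was still called when any 1 of the 12 animals was left out, with adjusted p from 0.00422 to 0.0985. A predicted gene on the same strand, Gm20388, overlaps Irf8 without sharing exon bases and had 0 counts in every library.

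Runx1 (ENSMUSG00000022952, chromosome 16, 92601466 to 92826149, minus strand) encodes a Runt-domain factor of blood and yolk-sac macrophage development. The APP/PS1 females had 2.63, 2.41, 2.32 and 1.67 CPM and the APP/PS1 males 1.98, 1.60, 1.80 and 2.11 CPM. The WT females had 1.30 and 1.09 CPM and the WT males 0.972 and 1.56 CPM. The groups did not overlap, but APP/PS1 male 2 and WT male 2 were nearly level. These were the lowest values of the 9 factors, from 37 to 104 reads per library, and 1 WT library fell short of a CPM of 1. The means were 2.06 ± 0.370 (SD, n = 8) and 1.23 ± 0.260 (SD, n = 4), and the log2 fold change was 0.80 ± 0.169 (SE, adjusted p = 0.0367). The call was lost in some fits with fewer libraries: the adjusted p was 0.168 without WT female 2, 0.125 without WT male 1 and 0.144 without the 3 choroid plexus-rich libraries. It was also lost with no factor of unwanted variation in the fit (0.117) or with 1 in place of 2 (0.106). Its log2 fold change stood at 0.69 without the 3 choroid plexus-rich libraries, 0.74 with 0 or 1 such factors and 0.65 to 0.94 without 1 animal.

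The promoters of Irf8 and Runx1 are shown because these are the called factors with RefSeq promoter entries, each running from 250 bases before a transcription start to 50 bases from the start on (GRCm38.p6, read on the gene's strand). A set of 5 motifs were searched on both strands in the 10 promoters of 6 of the factors and in all 32851 promoters of the table: GAGGAAGT, a core of PU.1 sites (3.20% of all promoters), GAAANNGAA, a core of interferon-response sites bound by IRF factors (8.56%), TGTGGT, bound by Runx factors (16.8%), CACGTG, the E-box bound by Bhlhe40, Bhlhe41 and Mitf (7.15%), and ACGTG, the core of hypoxia-response sites (19.6%), which is contained in the E-box. Capitals mark matches, and a match on the opposite strand reads ACCACA for the Runx motif and CACGT for the hypoxia-response core. The Irf8 window chr8:120736108-120736407 (plus strand) held a hypoxia-response core at position -186, counted from the start site. The Runx1 window at the downstream start, chr16:92697280-92697579 (minus strand), held 1 such core at -19. That at the upstream start, chr16:92826025-92826324 (minus strand), held an E-box at -71 and 2 Runx motifs at 29 and 37.
Irf8 promoter: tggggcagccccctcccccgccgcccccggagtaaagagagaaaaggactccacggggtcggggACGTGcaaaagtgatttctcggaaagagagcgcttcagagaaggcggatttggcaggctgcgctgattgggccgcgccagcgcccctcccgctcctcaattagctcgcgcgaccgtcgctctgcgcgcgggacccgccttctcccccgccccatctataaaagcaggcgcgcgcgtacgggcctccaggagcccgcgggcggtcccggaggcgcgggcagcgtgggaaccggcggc
Runx1 promoter, downstream start: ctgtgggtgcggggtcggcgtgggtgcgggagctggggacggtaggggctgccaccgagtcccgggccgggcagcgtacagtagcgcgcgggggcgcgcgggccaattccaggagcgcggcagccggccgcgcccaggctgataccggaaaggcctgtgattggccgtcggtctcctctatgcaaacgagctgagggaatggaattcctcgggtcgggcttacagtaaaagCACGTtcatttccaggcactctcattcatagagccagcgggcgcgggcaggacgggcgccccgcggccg
Runx1 promoter, upstream start: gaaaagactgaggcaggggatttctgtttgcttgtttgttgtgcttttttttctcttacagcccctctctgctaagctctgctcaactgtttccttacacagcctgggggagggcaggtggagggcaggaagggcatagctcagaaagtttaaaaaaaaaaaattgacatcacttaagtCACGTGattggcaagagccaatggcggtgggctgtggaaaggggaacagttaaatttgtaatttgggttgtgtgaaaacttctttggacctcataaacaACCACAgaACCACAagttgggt
The letters of the PU.1 and interferon-response motifs were in none of the 10 windows. The second Irf8 window held none of the 5 motifs.

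Maf, Bhlhe40 and Bhlhe41 are factors of the resting or lipid-handling macrophage. Maf (ENSMUSG00000055435, chromosome 8, 115682942 to 115707794, minus strand), a basic leucine zipper factor of mature macrophages and also of some interneurons, ranged from 28.7 to 36.6 CPM in APP/PS1 (median 30.8) and had 33.1, 31.8, 28.7 and 29.4 CPM in the WT animals. The genotypes overlapped almost completely, with a log2 fold change of 0.05 ± 0.0579 (SE, adjusted p = 0.857). Bhlhe40 (ENSMUSG00000030103, chromosome 6, 108660629 to 108666925, plus strand), a basic helix-loop-helix repressor also involved in the circadian clock, ranged from 89.0 to 121 CPM in APP/PS1 (median 103) and had 128, 92.5, 112 and 112 CPM in WT. It was the only one of the 9 factors with a negative log2 fold change, -0.07 ± 0.066 (SE, adjusted p = 0.796), and no APP/PS1 library exceeded the highest WT library. Without WT female 1, its highest library, the value was 0.03.

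Bhlhe41 (ENSMUSG00000030256, chromosome 6, 145858243 to 145865558, minus strand), the paralog of Bhlhe40, had 48.4, 52.0, 50.1 and 47.9 CPM in the APP/PS1 females and 42.2, 46.3, 52.8 and 55.1 CPM in the APP/PS1 males. The WT females had 45.4 and 39.6 CPM and the WT males 43.5 and 49.2 CPM. The APP/PS1 females lay above both WT females, and the males overlapped. The share of all genes that separate in this way within 1 sex was not counted. The sex difference of the genotype effect was not called (adjusted p = 0.998, quasi-likelihood test). The log2 fold change was 0.18 ± 0.0587 (SE, adjusted p = 0.256), and without APP/PS1 male 1, the lowest transgenic library, it passed the test (adjusted p = 0.0587). The RefSeq promoter of Bhlhe41, chr6:145865371-145865670 on the minus strand, held 1 E-box, the motif its own family binds, at -153.

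Mitf, Hif1a and Cebpa are factors of lysosomal genes, of low oxygen and of myeloid differentiation. Mitf (ENSMUSG00000035158, chromosome 6, 97807052 to 98021349, plus strand), of the MiT/TFE family of lysosomal regulators and known best from melanocytes and pigment epithelium, had 16.8, 9.97, 10.7 and 12.4 CPM in the APP/PS1 females and 11.0, 20.1, 10.4 and 10.6 CPM in the APP/PS1 males. The WT females had 9.54 and 15.8 CPM and the WT males 10.1 and 8.27 CPM. Its high values fell in the 3 libraries rich in choroid plexus transcripts, at 15.8 to 20.1 CPM there against 8.27 to 12.4 CPM in the other 9, and Mitf was the only one of the 9 factors for which these 3 libraries lay above all others. The males were nearly level where they separated by genotype, the lowest APP/PS1 male at 10.4 and the highest WT male at 10.1 CPM, and the females overlapped. As for Bhlhe41, the share of all genes so separated was not counted, and no sex difference was called. The log2 fold change was 0.16 ± 0.0695 (SE, adjusted p = 0.476).

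Hif1a (ENSMUSG00000021109, chromosome 12, 73901375 to 73947530, plus strand), the oxygen-regulated subunit of hypoxia-inducible factor, which is controlled largely through the stability of its protein, had 88.8, 85.6, 87.4 and 84.4 CPM in the APP/PS1 females against 74.9 and 74.3 CPM in the WT females. The APP/PS1 males had 95.6, 97.0, 88.3 and 76.9 CPM against 87.2 and 80.2 CPM in the WT males. As for Bhlhe41, the females separated by genotype whereas the males overlapped, and APP/PS1 male 4 lay below both WT males. Again the share of all genes so separated was not counted, and no sex difference was called. The log2 fold change was 0.13 ± 0.0501 (SE, adjusted p = 0.376), and it passed the test without APP/PS1 male 4 (0.0917). The Hif1a promoter chr12:73907617-73907916 held an E-box at -135 and a separate hypoxia-response core at -70.

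Cebpa (ENSMUSG00000034957, chromosome 7, 35119293 to 35121928, plus strand), a basic leucine zipper factor of myeloid progenitors and of adult microglia, had 28.1, 21.3, 31.7 and 27.2 CPM in the APP/PS1 females and 25.4, 27.4, 21.9 and 26.9 CPM in the APP/PS1 males. The WT females had 23.9 and 19.6 CPM and the WT males 20.9 and 22.3 CPM. APP/PS1 female 2 and male 3 lay within the WT range and the other 6 transgenic animals above it. The log2 fold change of 0.27 ± 0.107 (SE) was the highest of the 6 uncalled factors, with an adjusted p of 0.429. No motif was found in its promoter window, and Mitf had 1 Runx motif and 1 hypoxia-response core in its first window of 3 and none in the other windows.

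Per kilobase of annotated exon, the only scale on which genes can be set beside each other, the WT means ran from Bhlhe40 (23.6 ± 3.09 CPM per kb, SD, n = 4) through Hif1a (13.4 ± 1.02), Cebpa (8.22 ± 0.713), Bhlhe41 (6.61 ± 0.595), Maf (3.73 ± 0.248), Mitf (1.76 ± 0.540), Spi1 (1.08 ± 0.134) and Irf8 (0.611 ± 0.129) to Runx1 (0.102 ± 0.0216). The 3 called factors were thus the least abundant transcripts of the set. In WT no neighbours in this order overlapped between libraries, whereas in APP/PS1 the ranges of Cebpa (8.08 to 12.02) and Bhlhe41 (6.28 to 8.20), of Mitf (1.61 to 3.25) and Spi1 (1.36 to 2.46), and of Spi1 and Irf8 (1.004 to 1.92) overlapped. Exons of Runx1, Maf, Bhlhe40, Bhlhe41, Hif1a and Cebpa share bases with antisense genes, and the strand setting of the counting is not given in the sources used here. The antisense genes had at most 6 counts at Runx1 and 134 at Bhlhe41, against at least 37 and 1657 of the factors themselves. Hif1a also shares exon bases with a predicted gene on its own strand, Gm49321, which had 0 counts in every library.

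The second comparison was made within each sex. In females, 124 of 15521 genes (0.799%) were called, 118 of them (0.760%) higher, and 1 of the 9 factors, Irf8. In males, 25 genes (0.161%) were called, all higher (0.161%), and 0 of the 9 factors. Irf8 rose 2.70-fold in females (log2 fold change 1.44 ± 0.283 SE, adjusted p = 0.0699). In males its log2 fold change was 0.97 ± 0.273 (SE, adjusted p = 0.447). The female call of Irf8 was lost without the transgenic female 1 (0.111) or 2 (0.135), without WT female 1 (0.426) or 2 (0.252), and without the transgenic male 2 (0.101). For Runx1 the log2 fold change was 1.02 ± 0.243 in females and 0.59 ± 0.238 in males (SE, adjusted p = 0.111 and 0.821). For Spi1 it was 0.93 ± 0.263 and 0.63 ± 0.255 (SE, adjusted p = 0.212 and 0.821). At an unadjusted p under 0.05 stood 5 of the 9 factors in females, where 1492 of all 15521 genes did, and 4 in males, where 852 did. In males, edgeR's likelihood ratio test and DESeq2 each called 1 of the 9, Irf8 (adjusted p = 0.0715 and 0.0168), as did the fit without the 3 choroid plexus-rich libraries (0.0626). In females both of these tests called 3, with Spi1 at 0.0569 and 0.0499 and Runx1 at 0.0078 and 0.0647. The likelihood ratio test is the one that the study states.

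**Figure D2:**
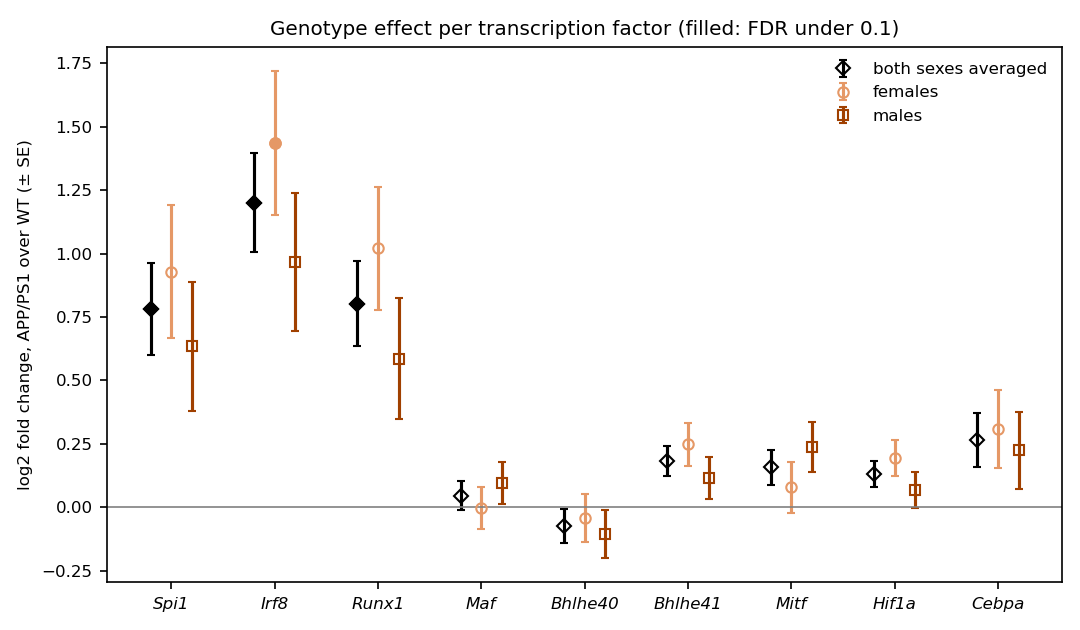
Log2 fold change of APP/PS1 over WT (± SE) for each factor, with the 2 sexes averaged (diamonds), in females (circles) and in males (squares), from edgeR's quasi-likelihood fit to all 12 libraries. Filled symbols passed an FDR of 0.1; these are Spi1, Irf8 and Runx1 averaged and Irf8 in females.

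The difference between the sexes was tested directly. The genotype effect of females less that of males was 0.47 ± 0.386 for Irf8, 0.43 ± 0.338 for Runx1 and 0.29 ± 0.364 for Spi1 (log2, SE), with an adjusted p of 0.998 for all 9 factors in edgeR. None of the 15521 genes (0%) was called and 589 had an unadjusted p under 0.05, of which 0 were among the 9 factors. The likelihood ratio test and DESeq2 also called 0 of the 9. These standard errors leave room for sex differences of the size of the genotype effects themselves. Between APP/PS1 females and APP/PS1 males, 14 genes (0.0902%) were called and 0 of the 9 factors, by edgeR's quasi-likelihood test, its likelihood ratio test or DESeq2, with 0 factors at an unadjusted p under 0.05. The log2 difference of females over males was 0.01 ± 0.197 for Spi1, 0.09 ± 0.205 for Irf8 and 0.23 ± 0.182 for Runx1 (SE). Mean Irf8 was 3.95 ± 0.104 CPM in WT females and 4.67 ± 1.40 CPM in WT males (SD, n = 2 each), beside 10.1 ± 2.58 and 9.48 ± 1.996 CPM in APP/PS1 females and males (SD, n = 4 each).

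Microglial marker transcripts as a list stood higher in APP/PS1, as did the 3 called factors. Among the 8 APP/PS1 libraries, Spi1 and Irf8 followed the mean log2 level of the markers (Pearson r = 0.912 and 0.926), and Runx1 did not (0.151). All 14 markers were tested and had positive log2 fold changes (median 0.82), and 8 were called higher, led by Siglech, Selplg and Gpr34. Of all genes tested, 1.75% were called higher. None of the 14 markers was at 0 in any library. Their summed level was 389 to 518 CPM in WT and 598 to 1001 CPM in APP/PS1, so that the groups did not overlap. In a bulk hippocampus, more microglia and more RNA per microglial cell cannot be told apart. Siglech, a microglial lectin gene, had a log2 fold change of 0.80 ± 0.143 (SE, adjusted p = 0.0289), Selplg, a selectin ligand gene, 0.56 ± 0.105 (adjusted p = 0.0289), and Gpr34, a lysophospholipid receptor gene, 1.05 ± 0.183 (adjusted p = 0.0336).

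Levels were next expressed relative to the markers, as log2 CPM of a factor less the mean log2 CPM of the 14 markers in the same library. This is a description without a test, and the marker mean itself was 5.30 ± 0.251 in APP/PS1 (SD, n = 8) and 4.55 ± 0.122 in WT (SD, n = 4). Spi1 kept pace with the markers, at -2.87 ± 0.117 in APP/PS1 and -2.79 ± 0.106 in WT, a difference of -0.08. Runx1 differed by -0.18, with -3.96 ± 0.301 and -3.77 ± 0.196. Irf8 exceeded them, at -1.96 ± 0.118 against -2.31 ± 0.220, a difference of 0.34, and 6 of the 8 APP/PS1 libraries lay above the highest WT library. For the other 6 factors the difference ran from -0.49 (Cebpa) to -0.87 (Bhlhe40), with no overlap between the genotypes for Maf, Bhlhe40, Bhlhe41, Hif1a and Cebpa. The marker means themselves did not overlap, at 4.39 to 4.67 in WT and 5.01 to 5.67 in APP/PS1. A gene equally abundant in both genotypes therefore lies lower in APP/PS1 on this scale by construction. The share of all genes without overlap on it was not counted. In the tissue as a whole these 6 factors did not pass the test while 8 of the markers did, and how much of each factor came from microglia was not measured.

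**Figure D3:**
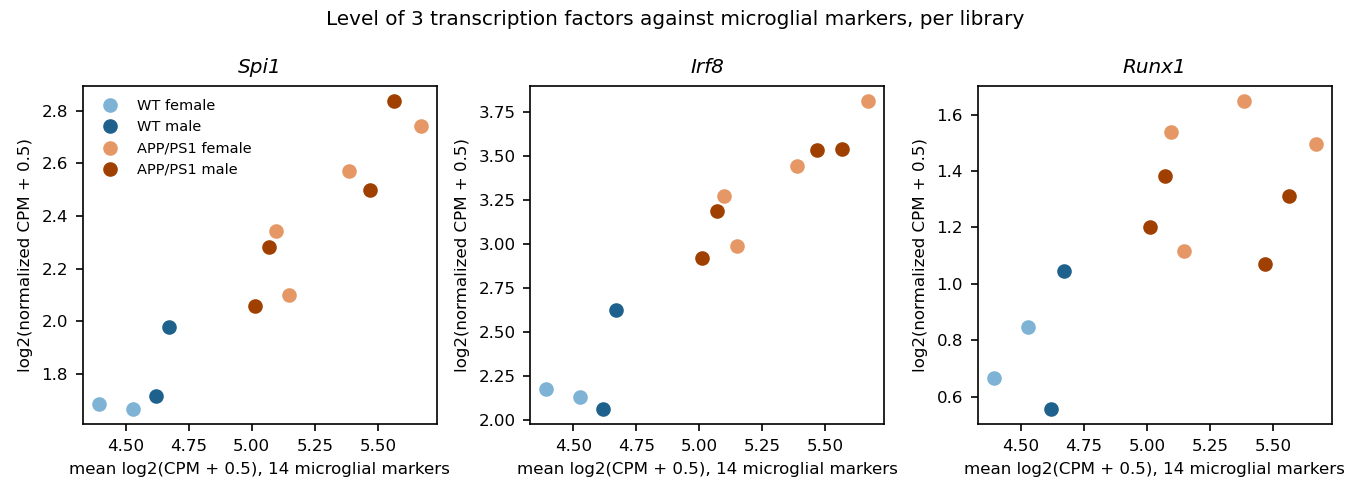
Log2 level of Spi1, Irf8 and Runx1 in each library against the mean log2 level of 14 microglial markers (both as log2 of normalized CPM + 0.5), coloured by group. The WT libraries lie at marker means of 4.39 to 4.67 and the APP/PS1 libraries at 5.01 to 5.67; Spi1 and Irf8 climb with the markers among the APP/PS1 libraries, and Runx1 is scattered.

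The same 4 APP/PS1 libraries, female 3, male 1, male 2 and female 1, were highest in the marker mean, in Spi1 and in Irf8, and male 3 was lowest in all of them. Runx1 did not keep that order, since its highest library was APP/PS1 female 1 and its lowest transgenic library male 2. Markers of other macrophages and of blood myeloid cells were read beside them. Of 7 genes of border-associated macrophages, 3 reached the expression minimum and 0 were called, and the summed level of all 7 was 7.28 to 12.02 CPM in APP/PS1 and 7.11 to 12.8 CPM in WT. Of 7 genes of blood myeloid cells only Vcan, which other brain cells also make, was tested, and it was not called. Of the other 6, Ly6g, which defines neutrophils, was at 0 in 10 libraries, Ly6c2, Plac8 and the monocyte receptor gene Ccr2 had at most 19 counts in any library, and S100a8 and S100a9, of neutrophils and monocytes, had at most 12 and 38 counts in APP/PS1 and at most 175 and 199 in WT. The summed level of the 7 genes was 20.7 to 26.3 CPM in APP/PS1 and 22.7 to 29.3 CPM in WT. Of the marker lists of other brain cells, 1 gene was called, Gfap of reactive astrocytes (log2 fold change 1.05 ± 0.139 SE, adjusted p = 0.0137).

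Relatives of the 9 factors were then examined from lists of 72 transcription factors, of which 62 were tested. Of these, 5 were called, all higher, beside 1.75% of all genes tested. Positive log2 fold changes were found for 37 of the 62, and the share of positive values over all genes was not counted. Irf5, an interferon regulatory factor of inflammatory macrophages, rose from 3.85 to 6.46 CPM (log2 fold change 0.71 ± 0.111 SE, adjusted p = 0.00733), and it was the only one of 6 tested relatives of Irf8 to be called. Among 24 other myeloid factors, Sall1, a zinc finger factor that marks microglia among macrophages, rose by a log2 fold change of 0.33 ± 0.0598 (SE, adjusted p = 0.0155). Ikzf1, which encodes the lymphoid and myeloid factor Ikaros, rose from 4.26 to 6.73 CPM (adjusted p = 0.0277), and Stat2, of interferon signalling, from 20.6 to 23.9 CPM (adjusted p = 0.0844). None of the 10 tested ETS relatives of Spi1 was called, nor of the 2 Runx, 2 MiT/TFE and 3 C/EBP relatives. Of the 9 partners and regulators of Hif1a, 0 were called and 1 had a positive log2 fold change.

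Lists of target genes, written from general knowledge of each factor, were read in the same way. Of 16 genes bound or activated by PU.1, all had positive log2 fold changes (median 1.01) and 11 were called. Fcer1g, the common Fc receptor gamma chain, rose from 5.17 to 11.4 CPM (log2 fold change 1.12 ± 0.107 SE, adjusted p = 0.000142). Cybb, the phagocyte NADPH oxidase subunit, rose from 0.512 to 2.49 CPM (2.16 ± 0.319 SE, adjusted p = 0.00622), and Tyrobp, the adaptor of TREM2, from 11.5 to 37.9 CPM (1.68 ± 0.214 SE, adjusted p = 0.0132). These are also genes of microglia as such, and they moved beside the markers above; the part of PU.1 in their change was not tested. Of 13 tested targets of Mitf and its relatives, 3 were called, the lysosomal genes Ctsd (0.96 ± 0.147 SE, adjusted p = 0.0283), Hexa (0.48 ± 0.0998 SE, adjusted p = 0.0525) and Cd63 (0.34 ± 0.0813 SE, adjusted p = 0.0786), with a median of 0.08 over the list. None of 13 tested hypoxia targets of Hif1a (median 0.02) and none of 8 genes of the liver X receptor pathway, which Bhlhe40 and Bhlhe41 repress (median 0.14), was called. Of the latter 8, 7 had positive log2 fold changes. Their summed level was 2833 to 3047 CPM in WT and 3084 to 3614 CPM in APP/PS1, most of it from Apoe and Scd2. No gene of these 12 lists was called lower, and 19 of the 112 tested were called higher, 11 of them in the Spi1 target list. Of all 15521 genes tested, 272 (1.75%) were called higher and only 25 lower.

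**Figure D4:**
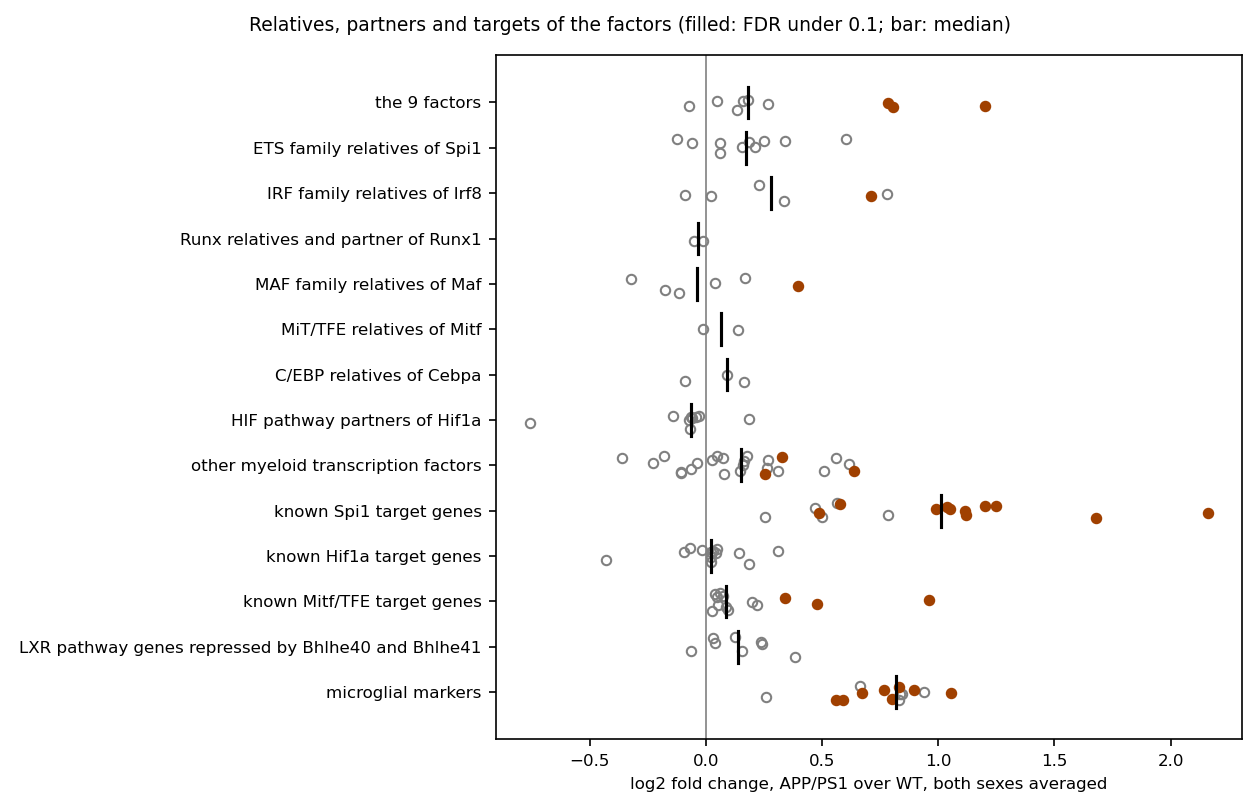
Log2 fold change of APP/PS1 over WT with the 2 sexes averaged for every tested gene of the 9 factors, their relatives, partners and target genes, and 14 microglial markers. Points are genes, filled points passed an FDR of 0.1 and black bars are list medians; the known Spi1 targets and the microglial markers lie to the right of 0, and the Hif1a targets and partners are centred near it.

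The genes whose levels followed each called factor most closely over the 12 libraries were found among all tested protein-coding genes, as a description in which the libraries share the genotype difference. For Spi1 these were Olfml3 (Pearson r = 0.965), a gene of the microglial marker list, Edem1 (0.963) and Abi3 (0.959). For Irf8 they were Arl11 (0.981), Ctsz, a lysosomal cathepsin (0.980), and Milr1 (0.979). For Runx1 they were Csf3r, the granulocyte colony-stimulating factor receptor (0.933), Arhgap25 (0.925) and Rasa3 (0.919). Cebpa, although not called, was followed by Ncf1 (0.902), Cd86 (0.887) and Pld4 (0.881), of which Ncf1 encodes a phagocyte oxidase subunit and Cd86 a costimulatory ligand.

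**Figure D5:**
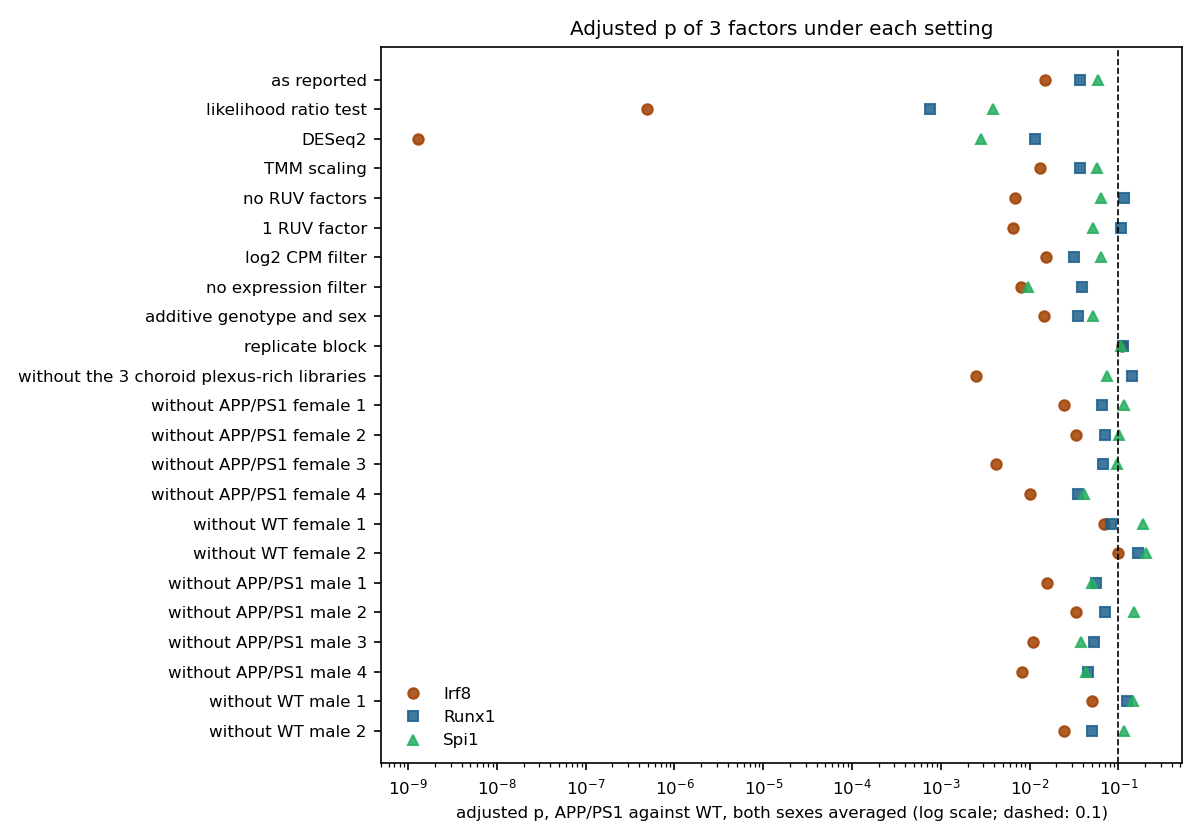
Adjusted p of Irf8, Runx1 and Spi1 for APP/PS1 against WT, with the 2 sexes averaged (log axis, dashed line at 0.1), as reported and under each alternative setting. Irf8 is below the line in all settings but the replicate block, at 0.111, whereas Runx1 and Spi1 cross it in several.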

How the data were processed

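RNA-seq was read from the gene counts deposited for 12 hippocampi. The authors made these counts with Trimmomatic (trimming), STAR (alignment, GRCm38) and HTSeq (counting per gene); versions, annotation and strand setting are not given in the sources used here. Symbols, positions and exon lengths came from GENCODE M21 (55480 of 55573 genes matched), and promoters from RefSeq (GRCm38.p6).

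Genes with a CPM of at least 1 in at least 3 libraries were tested with edgeR 4.0.16 (R 4.3.3): upper-quartile scaling, 4 groups of genotype and sex, 2 factors of unwanted variation estimated by the RUVg procedure, rewritten here, from all but the top 5000 genes of a first test, the quasi-likelihood test, two-sided, and Benjamini-Hochberg adjustment over 15521 genes. The text of the study states a log2 CPM minimum, and the number of genes it retained is that of the CPM minimum. It also states edgeR's likelihood ratio test, which was run here as an alternative to the quasi-likelihood test. The SE of a log2 fold change is its size divided by the square root of F. All animals shared 1 estimate of the spread, since each sex had only 2 WT animals. Fold changes are relative to a median of all genes of 0.01. Log2 levels used a pseudocount of 0.5. The averaged contrast of the fit was tried on simulated counts with genotype effects only. These held no sex effect and no added unwanted variation, so the contrasts within each sex and the removal of unwanted variation were not tested.

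The 9 factors, the lists of relatives, targets and markers, and the tests were chosen with earlier results of these data known. All 9 factors are named; of each list the called genes with the smallest p, at most 3 in each direction; and for a factor the 3 protein-coding genes with the highest correlation. Alternatives were the likelihood ratio test, DESeq2 1.42.0, TMM scaling, 0 or 1 factors of unwanted variation, other filters, an additive model, a replicate block, an FDR of 0.05, and leaving out each animal or the 3 choroid plexus-rich libraries. Libraries of 1 group differed beyond counting noise (chi-square per degree of freedom 14.3 to 66.5 over 14 pairs). A few genes that the rule would name are not reported here.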

Additional observations from a re-analysis of the deposited data

Results flagged for a closer look

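Mitf stood at 20.1 CPM in APP/PS1 male 2, apart from the other 3 APP/PS1 males, which lay between 10.4 and 11.0 CPM; the gap took up more than 0.829 of the range of the group. This library was 1 of the 3 rich in choroid plexus transcripts. A total of 18 groups of 4 libraries (9 factors in 2 groups) was searched in this way, and chance sets apart about 1 group in 20.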

How the results depend on the processing

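The number of factors called with the sexes averaged, 3, was the same under both other tests, TMM scaling, both other filters and the additive model. It was 2 with 0 or 1 factors of unwanted variation, without the 3 choroid plexus-rich libraries and at an FDR of 0.05. It fell to 0 with the replicate block and ran from 1 to 4 when 1 animal was left out. In females, the count of 1 became 3 with the likelihood ratio test, 3 with DESeq2, 2 with the log2 CPM filter, 2 without a filter, and 0 with the replicate block or an FDR of 0.05, and ran from 0 to 3 without 1 animal. In males, the count of 0 became 1 with the likelihood ratio test, 1 with DESeq2 and 1 without the 3 choroid plexus-rich libraries. The 19 called genes of the related lists became 10 with the replicate block and 10 at an FDR of 0.05, and ran from 6 (without WT female 2) to 25 without 1 animal. Leaving out a WT animal leaves 1 in its group, which is then assumed to vary like the others. The counts for the difference between the sexes and for APP/PS1 females against males were 0 under every alternative run for them, which leaves out the additive model. Over the alternatives the adjusted p ran from 1.28e-09 to 0.111 for Irf8, from 0.000748 to 0.168 for Runx1 and from 0.00285 to 0.203 for Spi1. Direction changed only for factors near 0. Maf was at -0.014 (sexes averaged) without the choroid plexus-rich libraries and at -0.009 to 0.118 without 1 animal; in females it was at 0.002 with the log2 CPM filter and at -0.102 to 0.160 without 1 animal. Mitf in females was at -0.028 without factors of unwanted variation, at -0.043 without a filter and at -0.085 to 0.142 without 1 animal. Bhlhe40 was at -0.184 to 0.032 (sexes averaged) without 1 animal and, in females, at 0.007 with the replicate block and -0.215 to 0.204 without 1 animal. The cause was not tested.

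The replicate numbers showed no steady pairing of the animals: of 14 pairs with the same number, 4 had deviations correlated above 0.1, and the correlations ran from -0.606 to 0.666. In the WT groups the deviations of the animals mirror each other, so this check could not settle whether the numbers pair the animals. With the number as a replicate block, the adjusted p was 0.111 for Irf8, 0.113 for Runx1 and 0.108 for Spi1, the log2 fold changes were 1.28, 0.87 and 0.91, and 244 of 15521 genes were called in place of 297. Runx1, at 37 to 104 reads per library, is the factor most limited by depth.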

Other observations

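The genes nearest to the factors that did not pass the test were of other kinds. Hif1a was followed over the 12 libraries by the ribosomal protein genes Rps3a1 (Pearson r = 0.971), Rps4x (0.969) and Rpl5 (0.967). Mitf was followed by Ifi27 (0.970), Cd55 (0.967) and Mdfic (0.967). Mitf itself was highest in the 3 choroid plexus-rich libraries, and the weight of those libraries in these correlations was not tested. For Bhlhe40 the nearest genes were Scaf8 (0.909), Csmd1 (0.894) and Phf3 (0.890), for Bhlhe41 they included Smad2 (0.794) and Rsad1 (0.787), and for Maf Scamp2 (0.885), Cdca4 (0.877) and Ttc8 (0.870).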
